A study of Mus musculus with 4 samples.

Results

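The annexins are calcium-regulated, membrane-binding proteins encoded by separate genes named Anxa. Probes were taken for 9 mouse annexin genes, Anxa1 to Anxa8 and Anxa11, by matching the gene symbol in the platform annotation. They were represented by 12 probes, against 16593 genes with a symbol on the array. The 9 symbols were chosen on earlier results of these same arrays, in which annexins differed between groups, so the values below only describe them. Calls, counts at an unadjusted p and intervals of annexins are descriptions too. They come from the arrays that chose the members and are no independent evidence of a difference. Of the 9 genes, 8 with 10 probes passed the filter on dim probes, which kept 8248 genes in all. Anxa7 did not pass. The 3 further annexin symbols on the array, Anxa9, Anxa10 and Anxa13, were detected on no array, with intensities of at most 13.7.

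The cells were mouse embryonic stem (ES) cells labelled E14, kept under normal ES cell conditions. They were transfected with lipofectamine and carried a short hairpin RNA (shRNA) against Esrrb, against Sox2, against both genes together (called dual here), or against GFP as the control. All 4 groups, the GFP group included, were selected with puromycin for 2 days before total RNA was taken for 1-colour Illumina bead arrays with a biotin label. Each group had 4 arrays, lettered A to D, 16 in all. The labels do not say whether the 4 arrays of a group came from separate transfections, so standard deviations and standard errors may reflect technical spread only. The labels give neither the hairpin sequences nor the promoter that drives them, and loss of a target cannot be told apart from other effects of its hairpin.

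An annexin has a conserved core that binds acidic phospholipids when calcium is present, and a variable N-terminal tail that gives each member its partners. Several tails bind small EF-hand calcium proteins of the S100 family. Annexins organise membrane and cortical actin, take part in exocytosis and endocytosis, and gather at torn plasma membrane. Esrrb, an orphan nuclear receptor, and Sox2, a high-mobility-group factor, both maintain ES cell self-renewal. Loss of Sox2 in mouse ES cells is known to release trophectoderm-like differentiation, and many annexins are abundant in epithelia such as trophectoderm.

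The hairpins lowered their own targets. The Esrrb probe read 2592 to 2778 with the Esrrb hairpin, 4658 to 5045 with the Sox2 hairpin and 3049 to 3366 with both, against 12236 to 13404 with the GFP hairpin. The Sox2 probe that stands for the gene read 438 to 547, 469 to 572 and 351 to 403 in the same 3 groups, against 744 to 870 with the GFP hairpin. On the log2 scale Esrrb fell by 2.11 under its own hairpin (limma, adjusted p = 1.58e-11) and Sox2 fell by 0.45 under its own (limma, adjusted p = 4.36e-04). Each target was also lower under the hairpin against the other. Sox2 fell by 0.55 (limma, adjusted p = 4.07e-04) under the Esrrb hairpin, no less than under its own. A dimmer Sox2 probe (ILMN_1248711) averaged 63.2, 53.0 and 29.9 with the Esrrb, Sox2 and dual hairpins, against 84.1 with the GFP hairpin, and so placed the Sox2 group below the Esrrb group. Arrays A and B of every group detected 11286 to 12054 of 25697 probes, and arrays C and D 12994 to 13322. Annexin values within A and B and within C and D are therefore given beside the pooled ones. The bulk RNA cannot separate a change in the share of some cells from a change in RNA per cell.

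The start regions of annexin genes differ in type. Shown are 4 of them, which span the range from genes that were higher with the Sox2 hairpin to 1 that was not. RefSeq promoters (GRCm38.p6), running from 250 bases before to 50 bases after each start, were available for 7 of the 9 members. There are 9 such promoters, because Anxa4 and Anxa7 have 2 each. Capitals mark matches to any of 8 short letter strings searched on both strands. These were the Esrrb string (AAGGTCA), the Sox string (AACAAAG), the GATA string (AGATAA), the TEAD string (GGAATG), the AP-1 string (TGANTCA), the TATA box (TATAAA), the GC box (GGGCGG) and the CCAAT box (CCAAT). Positions count from the start site as 0, with negative values upstream.
Anxa1, chr19:20390622-20390921, minus strand: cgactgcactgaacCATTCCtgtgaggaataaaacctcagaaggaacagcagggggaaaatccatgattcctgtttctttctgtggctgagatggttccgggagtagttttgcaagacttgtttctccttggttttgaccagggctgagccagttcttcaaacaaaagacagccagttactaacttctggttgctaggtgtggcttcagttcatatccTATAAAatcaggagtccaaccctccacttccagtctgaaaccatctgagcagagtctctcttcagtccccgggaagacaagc
Anxa2, chr9:69453433-69453732, plus strand: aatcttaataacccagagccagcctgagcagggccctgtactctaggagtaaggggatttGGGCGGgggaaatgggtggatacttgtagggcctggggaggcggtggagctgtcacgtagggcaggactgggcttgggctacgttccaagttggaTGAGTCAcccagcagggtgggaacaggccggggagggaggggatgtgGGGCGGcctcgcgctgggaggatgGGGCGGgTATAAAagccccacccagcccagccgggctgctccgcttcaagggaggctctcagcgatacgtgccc
Anxa5, chr3:36475838-36476137, minus strand: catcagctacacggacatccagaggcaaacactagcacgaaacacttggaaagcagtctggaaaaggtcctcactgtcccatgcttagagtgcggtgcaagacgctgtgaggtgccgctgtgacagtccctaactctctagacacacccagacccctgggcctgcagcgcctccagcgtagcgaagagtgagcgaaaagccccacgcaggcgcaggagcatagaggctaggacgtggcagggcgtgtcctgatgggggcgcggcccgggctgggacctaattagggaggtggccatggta
Anxa11, chr14:25841905-25842204, plus strand: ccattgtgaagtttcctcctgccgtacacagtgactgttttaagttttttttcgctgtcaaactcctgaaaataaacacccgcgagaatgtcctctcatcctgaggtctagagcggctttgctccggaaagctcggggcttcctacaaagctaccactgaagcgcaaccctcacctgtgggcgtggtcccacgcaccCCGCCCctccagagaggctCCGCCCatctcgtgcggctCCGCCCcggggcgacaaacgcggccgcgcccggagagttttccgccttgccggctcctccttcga

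The Anxa1 promoter holds a TATA box from -32 to -27 and a TEAD string on the minus strand from -236 to -231. Its ratio of observed to expected CpG is 0.179, below the median of 0.384 over all 32851 promoters. The Anxa2 promoter holds an AP-1 string from -95 to -89, a TATA box from -17 to -12 and 3 GC boxes. The Anxa5 promoter holds none of the 8 strings and has a CpG ratio of 0.589. The Anxa11 promoter is the richest in CpG of the 9, with a ratio of 0.969, above that of 92.3% of promoters, and it holds 3 GC boxes on the minus strand. Neither the Esrrb string nor the Sox string occurs in any of the 9 windows. Over all promoters the Esrrb string occurs in 4.72% and the Sox string in 5.85%. The TATA box occurs in 13.6%, the TEAD string in 14.7%, the AP-1 string in 7.81%, the GATA string in 11.2%, the GC box in 35.7% and the CCAAT box in 37.4%. These matches describe letters in short windows, and no binding was measured.

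The Sox2 hairpin, alone or with the Esrrb hairpin, went with higher levels of Anxa1 to Anxa6. The Esrrb hairpin alone went with small differences in both directions. Each target also fell under the hairpin against the other. On the probe that stands for Sox2 the fall was 0.55 under the Esrrb hairpin and 0.45 under its own. The groups are therefore named by hairpin, and the differences cannot be assigned to loss of 1 target. Levels are given first as deposited intensities per array, which are relative units of 1 probe and cannot be set against another probe's. Differences are log2 values after background correction and quantile normalization, with the standard error (SE) of a limma fit over all 16 arrays and 8248 genes. A gene is called when its Benjamini-Hochberg adjusted p in that fit is under 0.05. The comparisons with GFP all use the same 4 GFP arrays, so they are not independent of each other.

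**Figure D1:**
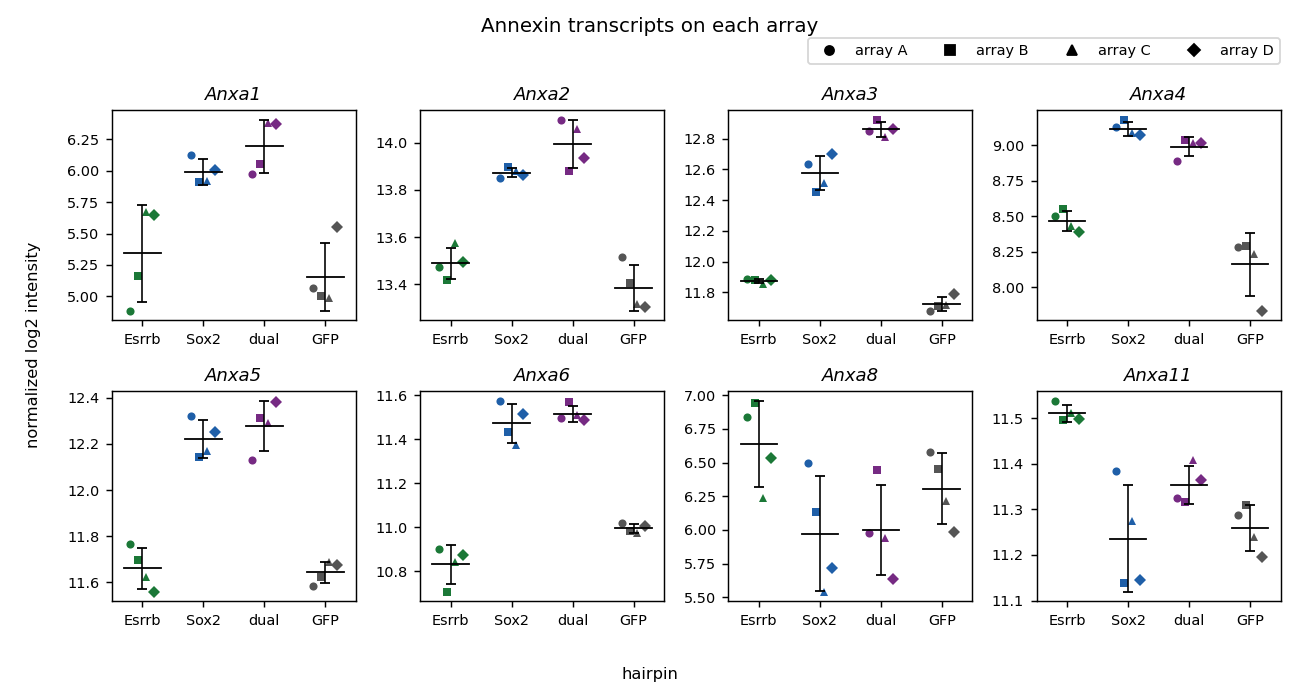
Normalized log2 intensity of the 8 annexin genes that passed the filter, 1 panel per gene, with 1 point per array (marker shapes give the letter A to D), a line at the group mean and bars of 1 SD (n = 4). The groups run Esrrb, Sox2, dual and GFP from left to right, and each panel has its own vertical axis. In the panels of Anxa1 to Anxa6 every Sox2 and dual array lies above every GFP array, whereas Anxa8 and Anxa11 do not show this for the Sox2 hairpin.

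Anxa1 is a glucocorticoid-induced annexin that signals through formyl peptide receptors to limit inflammation. Its probe (ILMN_1259252) read 14.4, 22.7, 32.3 and 29.8 on arrays A to D with the Esrrb hairpin. With the Sox2 hairpin it read 51.4, 42.2, 44.5 and 47.1, and with both hairpins 50, 46.6, 69.9 and 61.3, against 23.6, 20, 11.5 and 30.0 with the GFP hairpin. These are dim values: the probe was detected on 2 of 4 Esrrb arrays, on every Sox2 and dual array, and on 1 of 4 GFP arrays. It passed the filter through the Sox2 and dual groups alone, where it was high. The log2 difference from GFP was 0.84 (SE 0.17) with the Sox2 hairpin and 1.04 (SE 0.17) with both, without overlap of arrays, and 0.19 (SE 0.17) with the Esrrb hairpin, with overlap. Within arrays A and B the Esrrb, Sox2 and dual values were -0.01, 0.98 and 0.98, and within C and D 0.39, 0.69 and 1.10. Because the probe is dim its size depends on the processing: with an offset of 50 in place of 16 the Sox2 difference was 0.48 and the dual one 0.62. In the authors' deposited table the same differences were 1.36 and 1.66.

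Anxa2 forms a complex with S100a10 that links membrane to actin and binds plasminogen at the cell surface. Its probe (ILMN_2657175) read 11276, 11303, 12063 and 11274 with the Esrrb hairpin, and 14558, 14486, 14780 and 14672 with the Sox2 hairpin. With both hairpins the intensities were 17085, 13810, 16929 and 13807, against 12842, 11978, 10950 and 11325 with the GFP hairpin. The 4 Sox2 arrays lay close together, whereas dual arrays A and C were brighter than B and D. The dual arrays B and D were also dimmer over all probes, with mean intensities of 451 and 459 against 507 and 505 for A and C. After normalization, Anxa2 differed from GFP by 0.49 (SE 0.07) with the Sox2 hairpin and by 0.61 (SE 0.07) with both, without overlap. The values were 0.42 and 0.53 within arrays A and B, and 0.56 and 0.69 within C and D. The Esrrb hairpin gave 0.10 (SE 0.07), with overlap, and -0.03 without normalization between arrays. RefSeq lists a pseudogene, Gm41080, under the synonym Anxa2rp, and whether the probe also reads it was not tested.

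Anxa3, which promotes granule fusion in human neutrophils, had the widest span of group means among the 8 genes, at 1.14 on the log2 scale. Its probe (ILMN_1241171) read 3772, 3817, 3660 and 3601 with the Esrrb hairpin, and 5916, 5151, 5725 and 6495 with the Sox2 hairpin. With both it read 7166, 6915, 7272 and 6636, against 3483, 3649, 3606 and 3934 with the GFP hairpin. Every dual array was thus above every Sox2 array, and every Sox2 array above all Esrrb and GFP arrays. The log2 difference from GFP was 0.15 (SE 0.06), 0.85 (SE 0.06) and 1.14 (SE 0.06) with the Esrrb, Sox2 and dual hairpins, equal to a 2.20-fold level in the dual group. They were 0.19, 0.85 and 1.19 within arrays A and B, and 0.11, 0.85 and 1.09 within C and D. Another Anxa3 probe (ILMN_3135781) gave 0.26, 0.98 and 1.28 in the same order. For the Esrrb hairpin the normalized arrays of the first probe did not overlap with GFP, although the deposited intensities did.

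Anxa4, an annexin of epithelial cells, was the only one of the 8 with a lower mean with both hairpins than with the Sox2 hairpin alone. Its probe (ILMN_2935012) read 342, 358, 327 and 307 with the Esrrb hairpin, and 507, 507, 533 and 524 with the Sox2 hairpin. In the dual group it read 477, 447, 521 and 471, against 302, 322, 301 and 233 with the GFP hairpin. All 3 knockdown groups were clear of GFP after normalization. The log2 differences from GFP were 0.31 (SE 0.09), 0.95 (SE 0.09) and 0.83 (SE 0.09) with the Esrrb, Sox2 and dual hairpins, a 1.94-fold level with the Sox2 hairpin. They were 0.24, 0.86 and 0.67 within arrays A and B, and 0.38, 1.04 and 0.98 within C and D. GFP array D was the lowest of all 16 arrays for this gene. Without that array the Esrrb difference was 0.20.

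Anxa5 binds phosphatidylserine and is the protein used as a label of apoptotic cells. Its probe (ILMN_2680142) read 3483, 3402, 3094 and 2907 with the Esrrb hairpin, and 4854, 4142, 4545 and 4812 with the Sox2 hairpin. With both it read 4523, 4610, 5036 and 4753, against 3256, 3394, 3529 and 3614 with the GFP hairpin. The Sox2 and dual arrays covered a common range above all others, and the Esrrb arrays overlapped with GFP. The differences were 0.58 (SE 0.07) with the Sox2 hairpin and 0.64 (SE 0.07) with both, at 0.63 and 0.62 within arrays A and B and 0.53 and 0.66 within C and D. With the Esrrb hairpin the difference was 0.02 (SE 0.07), at 0.13 within arrays A and B and -0.09 within C and D, and -0.10 without normalization between arrays.

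Anxa6 is the large annexin, with a duplicated core, and acts in endocytosis and cholesterol traffic. After quantile normalization it was the only one of the 8 with a lower mean in the Esrrb group than in GFP, while without normalization between arrays Anxa2 and Anxa5 were lower too. Its probe (ILMN_2878060) read 1894, 1694, 1792 and 1792 with the Esrrb hairpin, and 2859, 2496, 2595 and 2894 with the Sox2 hairpin. In the dual group the values were 2928, 2741, 2959 and 2616, against 2178, 2166, 2152 and 2260 with the GFP hairpin. The Esrrb arrays lay below all GFP arrays, and the Sox2 and dual arrays above them. The log2 difference was -0.16 (SE 0.06) with the Esrrb hairpin, 0.48 (SE 0.06) with the Sox2 hairpin and 0.52 (SE 0.06) with both, and its sign was the same within A and B (-0.20, 0.50 and 0.53) and within C and D (-0.13, 0.45 and 0.51). In the limma fit the Esrrb difference was not called.

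Anxa7, which aggregates secretory granules, was detected on no array, and its probe (ILMN_2617956) read -15.2 to 23.4, so no difference is given. Anxa8, an epithelial annexin of late endosomes, had 1 dim probe (ILMN_2724558) detected on all 16 arrays and another (ILMN_2863332) detected on none. The detected probe read 97.8, 104.8, 58.9 and 73.0 with the Esrrb hairpin, and 70.5, 50.3, 28.1 and 34.8 with the Sox2 hairpin. With both it read 50.3, 63.7, 45.6 and 27.7, against 82.8, 77.8, 60.5 and 49.5 with the GFP hairpin. All groups overlapped with GFP. The log2 differences were 0.33, -0.33 and -0.31 (SE 0.22 each) with the Esrrb, Sox2 and dual hairpins, at 0.38, -0.20 and -0.30 within arrays A and B and 0.29, -0.47 and -0.31 within C and D. Dual minus Esrrb was -0.64 (SE 0.22), called in the limma fit although the arrays of both groups overlapped. Paired by array letter, in a fit with the replicate block, the Sox2 difference had an SE of 0.13 and was called. This raised the Sox2 count of annexins to 7, beside 48.7% of all genes. With the array set as a block the dual difference from GFP was called as well.

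Anxa11 has a long N-terminal tail that binds S100a6 and Pdcd6, and it tethers RNA granules to lysosomes. It stood apart from Anxa1 to Anxa6 in that its Esrrb group was the highest. Its bright probe (ILMN_3107156) read 2934, 2940, 2870 and 2793 with the Esrrb hairpin, and 2466, 2052, 2424 and 2213 with the Sox2 hairpin. In the dual group they were 2588, 2267, 2745 and 2430, against 2617, 2748, 2613 and 2600 with the GFP hairpin. The Esrrb arrays lay above all GFP arrays, by 0.25 (SE 0.06), at 0.22 within arrays A and B and 0.29 within C and D. The Sox2 difference was -0.02 (SE 0.06), with overlap, and -0.21 without normalization between arrays, where it was called. The dual difference was 0.09 (SE 0.06), at 0.02 within arrays A and B and 0.17 within C and D, and -0.08 without normalization. The Sox2 values within the sets were -0.04 and -0.01. A dim second probe (ILMN_2666669, intensities of 37.3 to 63.4) gave 0.42, 0.09 and 0.10 (SE 0.12 each) for the Esrrb, Sox2 and dual hairpins.

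**Figure D2:**
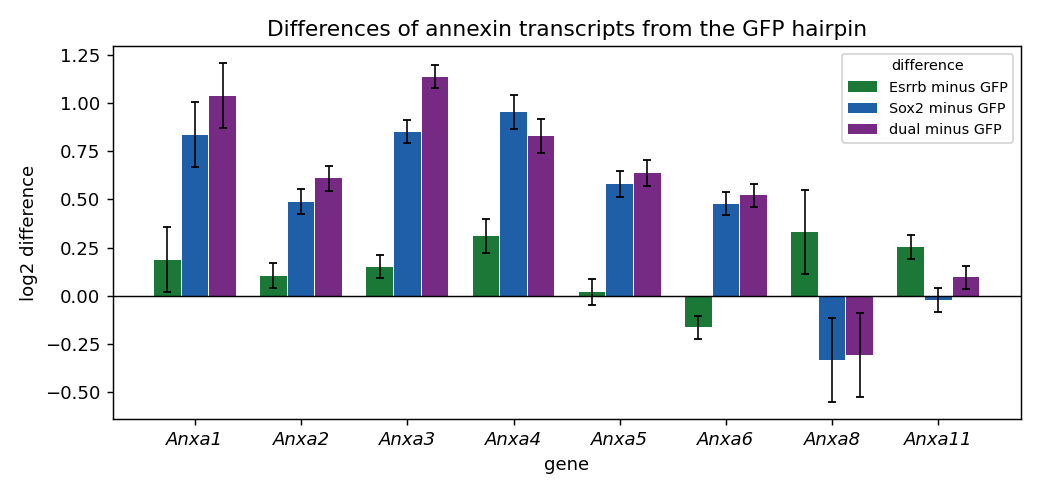
Bars give the log2 difference from the GFP group for the 8 annexin genes under the Esrrb, Sox2 and dual hairpins, with error bars of 1 SE (n = 4 arrays per group), and the line at 0 is the GFP mean. Anxa1 to Anxa6 lie between 0.48 and 1.14 under the Sox2 and dual hairpins, and all 8 genes lie between -0.16 and 0.33 under the Esrrb hairpin.

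Counted over the 8 genes that passed the filter, 2 annexins were called higher with the Esrrb hairpin (Anxa4 and Anxa11) and 0 lower, at an unadjusted p under 0.05 in 4. Over all genes 11.6% were called in that comparison and 5.86% were called higher. Their median log2 difference was 0.17, against 0.00 for all genes. With the Sox2 hairpin 6 were called higher (Anxa1 to Anxa6) and 0 lower, beside 43.2% of all genes called and 21.7% called higher, with a median of 0.53. With both hairpins the same 6 genes were called higher and 0 lower, beside 44.4% called and 22.1% called higher, with a median of 0.62 against -0.01 for all genes. Because earlier results of these contrasts chose the members, and Anxa1 entered only through its high groups, the counts describe the 8 genes and nothing is read from them.

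With both hairpins against the Esrrb hairpin alone, the same 6 genes were higher and Anxa8 was lower. The log2 differences of Anxa1 to Anxa6, in that order, were 0.85, 0.50, 0.99, 0.52, 0.62 and 0.69, each without overlap of arrays. All 6 were called, and Anxa8 was called lower, beside 40.2% of all genes called, 20.6% called higher and 19.6% called lower. Anxa11 was lower by 0.16 on the log2 scale (-0.16, SE 0.06) without overlap and was not called in the limma fit. Its call appeared once the fit took the array sets as blocks, and also without normalization between arrays. Leaving out 1 array gave counts of up to 8 annexins in this comparison, which include Anxa11. Adding the Esrrb hairpin to the Sox2 hairpin went with a smaller step. Dual minus Sox2 was 0.29 (SE 0.06) for Anxa3, without overlap, and it was the only annexin called, beside 6.41% of all genes called and 3.2% called higher. The same difference was 0.20 for Anxa1, 0.12 for Anxa2, 0.06 for Anxa5, 0.04 for Anxa6 and 0.12 for Anxa11. Anxa4 gave -0.13 (SE 0.09), without overlap, and was not called. In the same comparison 3 of 8 trophectoderm markers were called higher.

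Whether both hairpins together did more or less than the sum of each alone was given by the interaction, which is the dual difference from GFP minus the sum of the Esrrb and Sox2 differences from GFP. Of the targets, Esrrb had an interaction of 1.55 (limma adjusted p = 2.80e-07) and Sox2 of 0.07 (limma adjusted p = 0.842). Esrrb was higher with both hairpins than with the Esrrb hairpin alone (0.34, limma adjusted p = 8.79e-04). The sum thus adds hairpin differences and does not match the loss of Esrrb in the dual group. For Anxa1, Anxa2 and Anxa5 the interaction was 0.02, 0.02 and 0.04, with 95% intervals of -0.49 to 0.52, -0.18 to 0.21 and -0.17 to 0.25. For Anxa3 it was 0.14 (interval -0.04 to 0.32), for Anxa8 -0.31 (-0.96 to 0.35) and for Anxa11 -0.13 (-0.32 to 0.05). Anxa4 gave -0.43 (-0.70 to -0.17), a dual difference of 0.83 beside a sum of 1.26. Anxa6 gave 0.21 (0.02 to 0.39), a dual difference of 0.52 beside a sum of 0.31, as the Esrrb hairpin alone placed it below GFP. No annexin was called for the interaction by limma, 2 had an unadjusted p under 0.05, and 2.89% of all genes were called. With the replicate block, and likewise with the array set as a block, 1 was called, Anxa4, beside 4.32% and 5.24% of all genes.

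**Figure D3:**
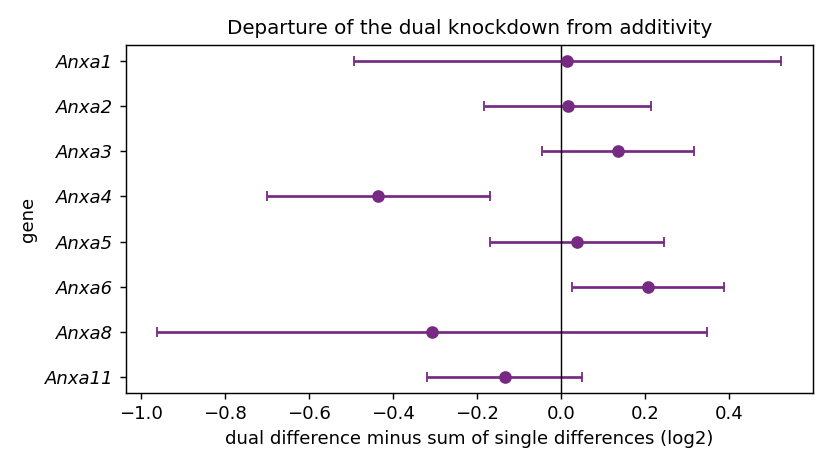
Interaction of the 2 hairpins on the log2 scale (dual difference from GFP minus the sum of the single differences) for each of the 8 annexin genes, with 95% intervals. The interval of Anxa4 lies below 0 and that of Anxa6 above 0, and the other 6 cross it.

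**Figure D4:**
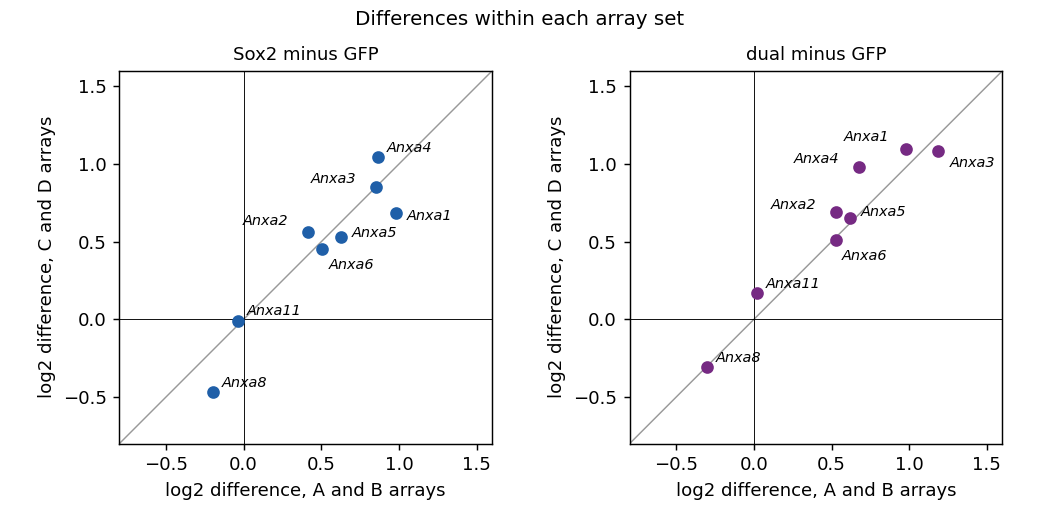
Log2 difference from GFP within arrays A and B (horizontal axis) and within arrays C and D (vertical axis), 1 point per annexin gene, with the Sox2 hairpin in the left panel and both hairpins in the right; the diagonal marks equal values. Anxa1 to Anxa6 lie above 0 in both sets and both panels, between 0.42 and 1.19.

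Across the 8 genes the arrays ordered alike within Anxa1 to Anxa6 but not for Anxa8 and Anxa11. Over the 16 arrays Pearson's r between Anxa3 and Anxa5 was 0.96, and between Anxa3 and Anxa2 it was 0.94, while Anxa3 and Anxa11 gave -0.20. These values describe the 4 group means more than single arrays. Within groups the r of Anxa3 with Anxa5 was 0.50 and that of Anxa3 with Anxa2 was -0.50. All probes of an array share its RNA, hybridisation and normalization.

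The genes whose log2 values followed an annexin most closely were listed for the 3 members with the widest spans, by Pearson's r over the 16 arrays. For Anxa3 these were Krt7 (0.988), Acta1 (0.988) and Plac1 (0.985). Krt7 is a keratin of simple epithelia and one of the trophectoderm markers used below, and Plac1 is a gene of placental trophoblast. Their log2 differences from GFP with both hairpins were 1.93, 1.86 and 3.18, and their r with Anxa3 within groups was 0.43, 0.36 and 0.57. For Anxa1 the nearest genes were Myo1c (0.970), Qars (0.949) and Htra3 (0.942), and for Anxa4 they were Fndc10 (0.977), Tmem9b (0.973) and Pramel17 (0.964). Within groups the r with Anxa1, whose probe is dim, was 0.86 for Myo1c, a membrane-bound myosin, 0.77 for Qars and 0.78 for Htra3. The r with Anxa4 within groups was 0.65, 0.64 and 0.44 for Fndc10, Tmem9b and Pramel17.

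Small EF-hand proteins are the best known protein partners of annexin tails, and 4 of the 5 that could be measured rose with the Sox2 hairpin, beside 21.7% of all genes called higher. The list held S100a10, S100a11, S100a6, S100a4, S100a1, S100b, Pdcd6 and Sri, and S100a4, S100b and Pdcd6 were not detected. It was written with the annexin results known, so it is not independent evidence of a direction. S100a11, the partner of Anxa1, read 16303, 15255, 15254 and 15702 with the Sox2 hairpin and 16987, 14147, 17554 and 15954 with both. It read 9889, 10626, 9101 and 9104 with the Esrrb hairpin, against 9344, 10040, 9413 and 9669 with the GFP hairpin. The Sox2 and dual arrays lay far above the Esrrb and GFP arrays. S100a11 rose by 0.87 (SE 0.06, limma adjusted p = 2.23e-08) with the Sox2 hairpin and by 0.93 (SE 0.06, limma adjusted p = 7.93e-09) with both. The Esrrb difference was 0.14 (SE 0.06, limma adjusted p = 0.145). The Sox2 and dual values were 0.88 and 0.87 within arrays A and B, and 0.86 and 0.997 within C and D.

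S100a10, the partner of Anxa2, did not pass the test in any comparison of the fit without blocks, although Anxa2 was higher. It read 539, 513, 388 and 638 with the Sox2 hairpin, 656, 385, 609 and 341 with both and 448, 446, 259 and 299 with the Esrrb hairpin, against 420, 424, 336 and 400 with the GFP hairpin. The groups overlapped widely, and dual arrays B and D were again low. The differences from GFP were 0.50 (SE 0.21, limma adjusted p = 0.0600) with the Sox2 hairpin and 0.40 (limma adjusted p = 0.132) with both. In the fit with the replicate block the Sox2 difference passed (limma adjusted p = 0.0305). The dual difference from the Esrrb group was 0.45 (limma adjusted p = 0.0957) and was called when the array set was the block. With 1 array left out, 4 to 5 of the 5 partners were called for Sox2 against GFP, dual against GFP and dual against Esrrb. A count of 5 includes S100a10, so its calls depended on single arrays.

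S100a6, a partner of Anxa11, rose by 0.45 (SE 0.11, limma adjusted p = 0.00353) with the Sox2 hairpin and by 0.59 (limma adjusted p = 3.84e-04) with both. S100a1, a calcium sensor of muscle, rose by 0.69 (SE 0.09, limma adjusted p = 1.34e-05) and 0.37 (limma adjusted p = 0.00284). It was the only partner that differed between dual and Sox2, where it was lower (-0.32, limma adjusted p = 0.0410). Sri encodes sorcin, a partner of Anxa7, which was itself not detected. It rose by 0.60 (SE 0.10, limma adjusted p = 1.04e-04) with the Sox2 hairpin and 0.35 (limma adjusted p = 0.00757) with both. Of its 3 other probes 1 was detected on no array, 1 (ILMN_3044633) averaged 172, 163 and 122 in the Sox2, dual and GFP groups, and 1 (ILMN_3120014) averaged 893, 919 and 809. For S100a6, S100a1 and Sri the Sox2 and dual differences within either array set were between 0.26 and 0.76. With the Esrrb hairpin 0 of the 5 were called by limma, beside 11.6% of all genes, and 1, S100a11, had an unadjusted p under 0.05. The median of the 5 was -0.05, 0.60 and 0.40 for the Esrrb, Sox2 and dual hairpins, against medians of 0.00, 0.00 and -0.01 for all genes. After scaling each array to its median in place of quantile normalization, only S100a11 was called for dual against GFP, and only S100a1 and S100a11 for dual against Esrrb. With that scaling 22.4% and 15.6% of all genes were called in these comparisons, against 44.4% and 40.2% after quantile normalization.

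**Figure D5:**
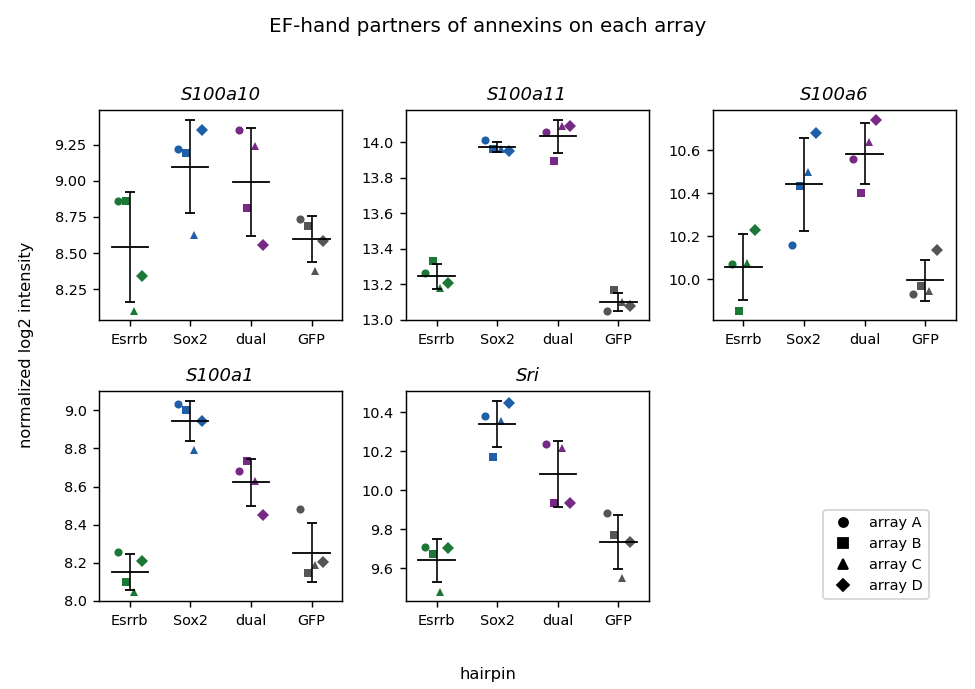
Normalized log2 intensity of the 5 EF-hand partner genes that passed the filter, 1 panel per gene and 1 point per array, with groups in the order Esrrb, Sox2, dual and GFP, a line at the group mean and bars of 1 SD (n = 4). S100a11 separates the Sox2 and dual arrays from the Esrrb and GFP arrays, whereas S100a10 overlaps between groups.

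Annexins gather at damaged plasma membrane together with dysferlin, AHNAK, calpains and the ESCRT machinery. Of a list of 14 such genes 9 could be measured. With the Sox2 hairpin 5 were higher and 0 lower, with both 5 were higher and 0 lower, and with the Esrrb hairpin 1 was higher and 1 lower, beside the shares of all genes given above. The medians of the 9 were -0.01, 0.42 and 0.37 in the order Esrrb, Sox2 and dual. Ahnak, a giant scaffold that binds the Anxa2 and S100a10 complex, rose by 0.59 (limma adjusted p = 0.00507) with the Esrrb hairpin, 1.41 (SE 0.13, limma adjusted p = 3.63e-07) with the Sox2 hairpin and 1.72 (limma adjusted p = 3.36e-08) with both. Its Esrrb difference was 0.78 within arrays A and B and 0.40 within C and D. A dim second Ahnak probe (ILMN_3159275) had mean log2 values of 5.20, 6.76 and 6.94 with the Esrrb, Sox2 and dual hairpins, against 5.14 with GFP. Dysf, which encodes dysferlin, rose by 0.68 (limma adjusted p = 0.0148) with the Sox2 hairpin and 0.89 (limma adjusted p = 0.00241) with both. The brightest probe of Capn2, a calpain protease, rose by 0.52 (limma adjusted p = 2.16e-04) and 0.53 (limma adjusted p = 1.60e-04). Its dimmer probes differed little from GFP. Mean log2 values with the Sox2, dual and GFP hairpins were 7.11, 6.98 and 7.07 (ILMN_2683586) and 6.59, 6.62 and 6.52 (ILMN_1219583). Pdcd6ip, the ESCRT adaptor ALIX, rose by 0.42 (limma adjusted p = 5.14e-04) and 0.37 (limma adjusted p = 0.00121). Capns1, the calpain small subunit, fell with the Esrrb hairpin (-0.49, limma adjusted p = 7.53e-04), at -0.70 within arrays A and B and -0.27 within C and D.

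Some trophectoderm and extraembryonic endoderm markers moved with the annexins, though not every marker of either list. Of 10 trophectoderm markers 8 passed the filter. With the Esrrb, Sox2 and dual hairpins 3, 6 and 6 of the 8 were called higher and 1, 0 and 0 lower, beside 5.86%, 21.7% and 22.1% of all genes called higher. With the Sox2 and dual hairpins the 6 were Gata3, Hand1, Krt7, Krt8, Krt18 and Krt19. Hand1 passed the filter through the Sox2 and dual groups alone, where it was high, and read -16.7 to 14.8 with the GFP hairpin. The defining factors Cdx2 and Tfap2c were not among them, with differences of -0.22 and -0.13 with the Sox2 hairpin and 0.26 and -0.06 with both. Elf5 and Eomes did not pass the filter, as they were detected on some arrays of a group at most. The summed intensity of all 10 markers, those that did not pass included, was 8611 to 9215 with the Esrrb hairpin and 19890 to 24342 with the Sox2 hairpin. It was 20878 to 27445 with both, against 9045 to 10029 with the GFP hairpin. Sums of this kind are carried by the brightest probes, here Krt8 and Krt18 with the Sox2 and dual hairpins. With the GFP hairpin Tfap2c was the brightest, at a mean of 4562 against 2845 for Krt8 and 956 for Krt18.

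Of 10 extraembryonic endoderm markers 7 passed the filter, and 0, 3 and 3 of them were called higher in the same 3 groups, beside the same shares of all genes. The 3 were Gata6, Dab2 and Col4a1, whereas Sox7, Sox17, Lamb1 and Pdgfra were not called. Foxa2 and Afp were detected on no array and Gata4 on 1. The sum of all 10 was 1787 to 2436, 3915 to 4763 and 4917 to 5791, against 1790 to 2254 with the GFP hairpin. It was carried by Col4a1, which averaged 1518, 3200 and 4203, against 1380 with the GFP hairpin.

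All 7 ES cell markers passed the filter, and 4, 6 and 6 of them were called lower with the Esrrb, Sox2 and dual hairpins, beside 11.6%, 43.2% and 44.4% of all genes called in either direction. Pou5f1 differed by -0.03, -0.90 and -0.93 and Zfp42 by -0.89, -1.41 and -1.54. The sum of the 7 was 58515 to 67764, 55655 to 58717 and 52113 to 57325, against 63687 to 66488 with the GFP hairpin. It was carried by Dppa5a, which read 44935 to 55739.9 over the 16 arrays and was not called. Of 8 fibroblast markers, listed because ES cells can be grown on feeder fibroblasts, 3 passed the filter. With the Esrrb, Sox2 and dual hairpins 0, 1 and 0 of the 3 were called higher and 0, 1 and 1 lower, beside the same shares of all genes. With the Sox2 hairpin Col1a1 was higher (0.41) and Thy1 lower (-0.44), and with both Thy1 was lower (-0.42). All 8 together summed to 1116 to 1300, 1053 to 1258 and 906 to 1235, against 1219 to 1530 with the GFP hairpin. Col1a2, Col3a1, Dcn, Lum and Postn did not pass, and of these Col3a1 and Postn were detected on no array. The part of trophectoderm-like or endoderm-like cells in the annexin differences was not tested.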

How the data were processed

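Intensities per probe and array were deposited by the authors without normalization between arrays, per the file headers, with negative values where background had been subtracted. A detection score per probe and array, deposited beside them under a p-value heading, rises with intensity and was read as 1 minus the detection p. The authors also deposited 1 processed ratio per probe and group, of unstated scale and centring, with column medians of 0.805, 0.818 and 0.822 for the Esrrb, Sox2 and dual groups and 0.776 for GFP. Scanner software was not given in the sources used here.

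Intensities were background-corrected from the detection values, given an offset of 16, quantile-normalized over 16 arrays and put on the log2 scale (limma 3.58.1, R 4.3.3). The filter on dim probes asked for a detection p under 0.01 on every array of some group and left 11591 of 25697 probes. Of all probes 23978 had 1 gene symbol and 0 had several. The probe with the highest mean stood for a gene, and other probes of a member are given beside it. limma (lmFit, eBayes) fitted 1 mean per group over all 16 arrays for 6 contrasts, with Benjamini-Hochberg adjustment over 8248 genes, and was tested on simulated data. The members and all gene lists were chosen with earlier results of these data known. Named genes are all members and EF-hand partners, and from each further list, per comparison, up to 4 called genes with the largest change, otherwise 2; marker genes named singly were chosen after their values were seen; genes most like a member are its 3 nearest by Pearson's r.

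Same-lettered arrays of different groups deviated from their group means together (r of 0.143 to 0.446). Letters A to D were taken as pairs in the replicate block, while the fit behind the SE values used no block. For 6 of 16 arrays the closest array of another group had the same letter. The pairing was an assumption, since no label says that a letter marks a shared day. The values here do not tell pairs of letters from a shift shared by A and B and by C and D. Mean r was 0.322 within A and B or within C and D, inside the range for same-lettered arrays. It was -0.322 between these sets, and these means are tied because each group was centred on its own mean. With the replicate block the annexins called for the Sox2 hairpin were 7, beside 48.7% of all genes. The number of arrays limits precision. Probe sequences were not used here.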

Additional observations from a re-analysis of the deposited data

Results flagged for a closer look

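In 8 of 52 groups of 4 arrays, 1 array lay so far from the other 3 that its gap exceeded Dixon's 95% critical value; chance gives about 1 in 20. All values are normalized log2 intensities. Among annexins, Anxa1 was at 5.555 on GFP array D, against 4.99 to 5.07 on the other GFP arrays. Anxa4 was at 8.891 on dual array A, against 9.02 to 9.03 on the other dual arrays. Anxa4 was also at 7.833 on GFP array D, against 8.23 to 8.29. Among the EF-hand partners, S100a11 was at 14.012 on Sox2 array A, against 13.95 to 13.96 on the other Sox2 arrays, and at 13.896 on dual array B, against 14.06 to 14.09. S100a6 was at 10.137 on GFP array D, against 9.93 to 9.97. S100a1 was at 8.481 on GFP array A, against 8.14 to 8.20, and Sri was at 9.48 on Esrrb array C, against 9.67 to 9.71. GFP array D is the array named most often, with 3 of the 8. Without it 1 annexin in place of 2 was called with the Esrrb hairpin, beside 8.74% of all genes, as Anxa4 was no longer called. With the Sox2 hairpin 6 were called and with both 6.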

How the results depend on the processing

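The counts of annexins called moved by no more than 1.5 times under any of 27 alternatives for the Sox2 hairpin (5 to 7) and for dual against GFP (5 to 7) or Esrrb (6 to 8). Over the alternatives the share of all genes called was 18.3% to 49.5%, 19.4% to 50.6% and 15.6% to 46% in these comparisons. The Esrrb count of 2 was 0 with median scaling and within arrays A and B or C and D alone, where fewer arrays were used. The shares of all genes called were then 2.44%, 3.91% and 4.04%, against 11.6% in the main fit. This count was 1 without normalization between arrays (Anxa6, beside 15% of all genes) or without the filter (beside 4.06%). It was 3 with the mean of all probes of a gene (Anxa3 added). Leaving out 1 array gave 1 to 2, with 1 (Anxa11) without GFP array D or Esrrb array A, B or C. In that order 8.74%, 8.91%, 9.1% and 8.89% of all genes were called. Anxa3 alone was called for dual against Sox2. This count was 0 with median scaling, within A and B, within C and D, and without dual arrays B and D, an alternative added after seeing the data. In that order 0.582%, 1.35%, 0.385% and 2.8% of all genes were called, against 6.41% in the main fit. The interaction count of 0 was 1 with the replicate block and with the set block, beside 4.32% and 5.24% of all genes. EF-hand partners for dual against Sox2 (S100a1) fell to 0 with median scaling, no normalization, no filter, either set alone or without dual arrays B and D. In these settings 0.385% to 4.81% of all genes were called. With 1 array left out the partners called ranged from 0 to 1. They were 0 without GFP D, Esrrb B or D, Sox2 A, B or D, or dual A, C or D, beside 3.92% to 6.23% of all genes. With median scaling the partners called were 1 for dual against GFP and 2 for dual against Esrrb, beside 22.4% and 15.6% of all genes. The cause was not tested. Of 1338 member differences under the alternatives, 1280 moved by less than the spread between arrays, 58 moved further and 0 reversed a called sign. Without normalization between arrays the median of all genes shifted by -0.10, -0.14 and -0.14 for the Esrrb, Sox2 and dual hairpins. Other than those named beside the results, the replicate block changed no call of an annexin, an EF-hand partner or a membrane repair gene. Anxa1 could not be measured when detection on every array was asked for. The dim signals of Anxa1 and Anxa8 limit what their sizes show.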

Other observations

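Other systems linked to annexins were sparsely measured on these arrays. Of 6 genes of the plasminogen system, which uses Anxa2 as a surface receptor, 2 passed the filter. Plaur, the urokinase receptor, rose by 0.56 (limma adjusted p = 0.00235) with the Sox2 hairpin and 0.91 (limma adjusted p = 3.04e-05) with both, and its Esrrb difference was 0.15 (limma adjusted p = 0.510). Plau, the urokinase itself, differed from GFP by 0.05 with the Sox2 hairpin (limma adjusted p = 0.761) and 0.03 with both (limma adjusted p = 0.834).

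Of 7 genes around the Anxa1 receptor and glucocorticoid response, 2 passed the filter, and the Anxa1 receptor Fpr2 was not detected. Both are glucocorticoid-induced genes, as Anxa1 is, and they moved in opposite directions with the Sox2 hairpin. Tsc22d3, which encodes GILZ, rose by 0.46 (limma adjusted p = 0.00468) with the Sox2 hairpin, and its difference was 0.13 (limma adjusted p = 0.390) with both. Fkbp5, a co-chaperone of the glucocorticoid receptor, fell with the Sox2 hairpin (-0.38, limma adjusted p = 0.00369) and with both (-0.51, limma adjusted p = 3.11e-04). In the fit with the replicate block it also fell with the Esrrb hairpin (-0.22, limma adjusted p = 0.0450), and Tsc22d3 was lower in dual than in Sox2 (-0.33, limma adjusted p = 0.0494).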
